A study of Mus musculus with 35 samples.

Results

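The genes described here are 9 scavenger receptors that take part in the uptake of particles, namely Marco, Msr1, Colec12, Cd36, Scarb1, Scarb2, Cd68, Mrc1 and Stab1, out of 18193 genes named on the array. They were taken by symbol from the platform annotation, and each was read from its single-gene probe set of highest mean signal over all 35 arrays. All 9 were among the 12669 genes that passed a filter on low signal, which asked for a signal above 165 on 5 or more arrays (165 being the median over the whole data set). Marco passed it on 12 of 35 arrays only, so its values are described with that limit.

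The study measured liver RNA (left lateral lobe) of BALB/c mice, 6 h after an intravenous injection, with 5 mice and 1 array per mouse in each of 7 groups. Control mice received the vehicle, deionized water. The treated mice received silica particles called SP70 at 10, 20 or 40 mg/kg, SP30 at 10 mg/kg, or SP300 at 10 or 200 mg/kg, and the particles differ in size. Their age and sex are not given in the sources used here. One experiment compared the doses of SP70, and the other compared particle sizes, once with 10 mg/kg of each and once at the doses the study called toxic. The toxic dose of SP70 was 40 mg/kg and that of SP300 was 200 mg/kg, whereas SP30 was toxic at 10 mg/kg.

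Scavenger receptors are surface proteins of unlike structure that bind polyanionic ligands, modified lipoproteins, cell debris and inert particles, and hand them to endosomes and lysosomes. In the liver they sit mainly on Kupffer cells, the macrophages of the sinusoids, and on liver sinusoidal endothelial cells, which together clear colloids from the blood. Class A receptors (Marco, Msr1 and Colec12) carry a collagen-like stalk and bind bacteria and mineral particles. Class B receptors (Cd36, Scarb1 and Scarb2) cross the membrane at both ends and handle lipids. Cd68 is a class D glycoprotein of macrophage late endosomes, Mrc1 is the mannose receptor of endothelium and macrophages, and Stab1 is stabilin-1, a class H receptor of the sinusoidal endothelium.

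The windows of 250 bases upstream of the annotated start are shown for Marco, Cd68 and Mrc1, because Marco and Cd68 differed between SP30 and the other particles at their toxic doses and Mrc1 reached the lowest log2 difference from control. They were taken from a RefSeq promoter table of build GRCm38.p6, which held 6 of the 9 genes, and each is written 5′ to 3′ in the direction of its gene. Marco lies at chr1:120505025-120505274 on the minus strand, Cd68 at chr11:69666171-69666420 on the minus strand and Mrc1 at chr2:14229164-14229413 on the plus strand. Capitals mark GAGGAAG, a core bound by the myeloid factor PU.1, and TGACTCA, the element of the AP-1 factors, each searched on both strands.
Marco: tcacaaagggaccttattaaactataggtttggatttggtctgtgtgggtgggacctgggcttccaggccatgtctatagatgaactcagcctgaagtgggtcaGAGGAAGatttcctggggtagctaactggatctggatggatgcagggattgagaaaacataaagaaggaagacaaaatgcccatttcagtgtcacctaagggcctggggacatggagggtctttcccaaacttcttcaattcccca
Cd68: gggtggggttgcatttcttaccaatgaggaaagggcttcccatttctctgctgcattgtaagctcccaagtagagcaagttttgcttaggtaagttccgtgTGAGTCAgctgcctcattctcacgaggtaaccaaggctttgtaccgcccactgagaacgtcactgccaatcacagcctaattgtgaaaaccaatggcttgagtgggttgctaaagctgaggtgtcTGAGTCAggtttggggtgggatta
Mrc1: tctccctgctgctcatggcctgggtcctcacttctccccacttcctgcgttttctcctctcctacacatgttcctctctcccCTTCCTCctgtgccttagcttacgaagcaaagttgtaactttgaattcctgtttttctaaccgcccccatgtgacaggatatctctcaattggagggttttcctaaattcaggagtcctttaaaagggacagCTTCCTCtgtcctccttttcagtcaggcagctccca
The PU.1-type core stood once in the Marco window and at 2 places in the Mrc1 window, where it reads CTTCCTC on the strand shown. The AP-1 element stood at 2 places in the Cd68 window, where it reads TGAGTCA. Of all 32851 windows of this length in the table, 10.6% held the PU.1-type core and 4.46% held the AP-1 element. Neither was found in the windows of Stab1, Cd36 and Scarb2. A match is a description of these letters and was not tested as a binding site.

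The signal is the intensity of a probe set on a linear scale, and its level cannot be set against that of another probe set. Differences are given as log2 of the signal plus 12.5, a pseudocount that makes the change of low genes look smaller than it is, with the standard error (SE) of limma's fit over all 35 arrays. Adjusted p is limma's two-sided test with Benjamini-Hochberg adjustment over the 12669 genes, and a gene was called at an adjusted p under 0.05. The arrays' median signals ran from 149 to 180, and arrays of a group correlated at 0.941 to 0.956 across probe sets. Over the 16 comparisons, the median log2 difference of all genes ran from -0.18 to 0.06, and another scaling of the arrays moved it by -0.10 to 0.13. In whole liver, fewer cells of a type and less RNA per cell cannot be told apart.

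**Figure D1:**
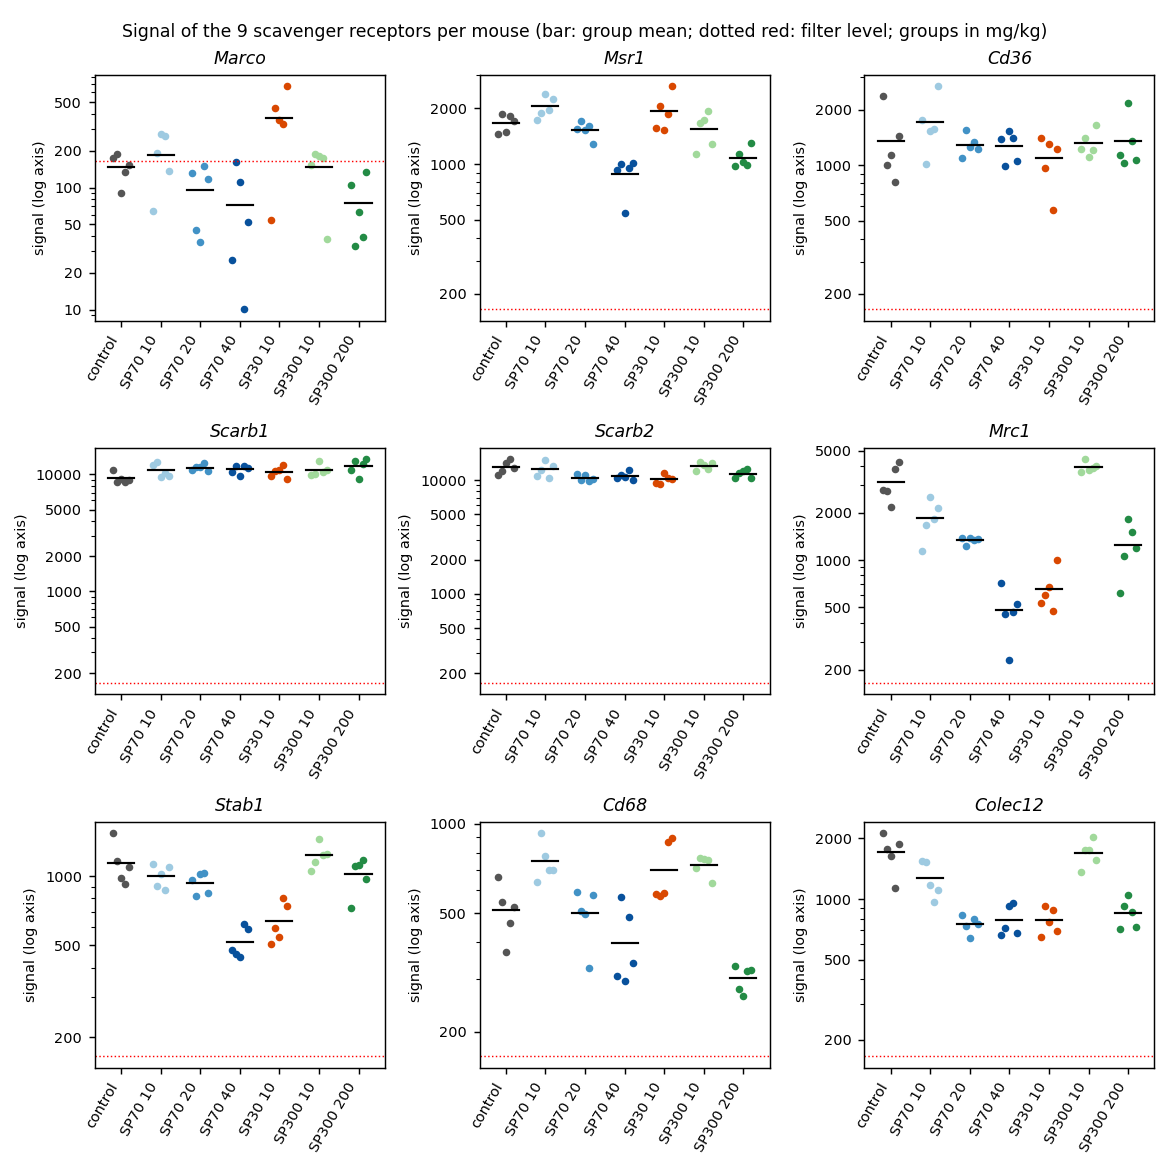
Signal of the 9 scavenger receptors in each mouse, on a log axis, for the control group and the 6 treated groups (5 points per group; the bar is the group mean; the dotted red line is the filter level of 165). Mrc1 is lowest after SP70 at 40 mg/kg (mean 479) and SP30 (656), and the points of Marco lie near or under the filter level in most groups.

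Against control, 18 of the 54 tests of a receptor in a treated group gave a lower and 5 a higher signal. After SP70 at 10 mg/kg, 1 receptor was higher and 2 were lower, where 18.2% of all genes were called, 12.5% higher and 5.7% lower. At 20 mg/kg of SP70, 1 was higher and 3 were lower, with 39.8% of all genes called (18.8% higher, 20.9% lower). At 40 mg/kg of SP70, 1 was higher and 5 were lower, with 44.4% of all genes called (15.6% higher, 28.8% lower). SP30 at 10 mg/kg gave 1 higher and 4 lower, with 49.3% of all genes called (18.1% higher, 31.3% lower). SP300 at 200 mg/kg also gave 1 higher and 4 lower, with 30.7% of all genes called (12.6% higher, 18% lower). After SP300 at 10 mg/kg limma called none of the 9, and it called 1.17% of all genes (0.924% higher, 0.245% lower). Below 0.05 before adjustment, limma had 2 receptors in that group, Cd68 and Scarb1, both with higher means. The shares of receptors called for SP30 (55.6%) and for SP70 at 20 mg/kg (44.4%) lay near those of all genes, and with 9 receptors the other shares differ from the background by few genes. With each array centred on its own median, the split after SP70 at 20 mg/kg was 0 higher and 4 lower, and at 40 mg/kg it was 0 higher and 7 lower. With quantile normalization, SP70 at 10 mg/kg gave 0 higher and 2 lower, and SP30 gave 2 higher and 4 lower.

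The median log2 difference of the 9 receptors was -0.92 after SP70 at 40 mg/kg and -0.61 after SP300 at 200 mg/kg, beside -0.09 and -0.06 over all genes. It was -0.27 after both SP30 and SP70 at 20 mg/kg, and 0.20 after SP70 at 10 mg/kg. The 6 comparisons share the control mice. Cell type markers moved as well, and each list below leaves out the 9 receptors from its summed signal. The summed signal of 12 Kupffer cell markers, in percent of the control mean, was 78.6 to 115 in control mice and 91.6 to 119 after SP300 at 10 mg/kg. It was 32.7 to 62.1 after SP70 at 10 mg/kg, 17.6 to 22.0 at 20 mg/kg and 11.4 to 19.4 at 40 mg/kg, 23.7 to 47.5 after SP30 and 16.2 to 19.6 after SP300 at 200 mg/kg. The group means of 9 of these 12, among them Clec4f, Vsig4 and Timd4, were under 165 after SP70 at 40 mg/kg and after SP300 at 200 mg/kg. After SP30 that held for Timd4 and Cd163 alone.

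The summed signal of 14 sinusoidal endothelial markers was 84.3% to 123% of the control mean in control mice. It was 20.0% to 47.7% after SP70 at 40 mg/kg and 28.9% to 48.3% after SP30, with no overlap with control, and none of the 14 had a group mean under 165. After SP300 at 200 mg/kg it was 36.3% to 79.9%, after SP70 at 20 mg/kg 66.1% to 82.0%, and after SP70 at 10 mg/kg 64.6% to 99.2%, which overlaps control. After SP300 at 10 mg/kg it was 123% to 141%. The summed signal of 9 markers of recruited monocytes was 96.9% to 102% in control mice and 144% to 156% after SP30. It lay wholly above control also after SP70 at 10 mg/kg (126% to 145%), at 20 mg/kg (132% to 143%) and at 40 mg/kg (115% to 156%), and after SP300 at 200 mg/kg (110% to 127%). In control mice most of this sum was Fn1, with a mean of 37053 out of 39944, so the sum is not a level of monocytes as such. Of the 9 markers, 6 had control means under 165. Stellate cell and fibroblast markers summed to 85.7% to 113% in control mice, 51.4% to 82.9% after SP30, 49.5% to 92.1% after SP70 at 40 mg/kg and 67.9% to 93.9% after SP300 at 200 mg/kg. Cholangiocyte markers, of which 3 were tested, summed to 70.8% to 134% in control mice and 197% to 300.2% after SP30. Among these 3, limma called Sox9 against control (smallest adjusted p = 2.95e-07). It called Epcam and Krt19 in no group (smallest adjusted p of 0.145 and 0.334). The means of Krt7 and Cftr were under 165 in every group. The 11 hepatocyte markers summed to between 84.4% and 118% in all treated groups. A sum of linear signals is weighted to its brightest markers, so it does not show that each marker was unchanged. Limma called Hnf4a, Ass1, Serpina1c and Tat against control (smallest adjusted p of 1.68e-05, 3.88e-05, 0.000500 and 0.00206). The part of these shifts in the receptors' values was not tested.

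**Figure D2:**
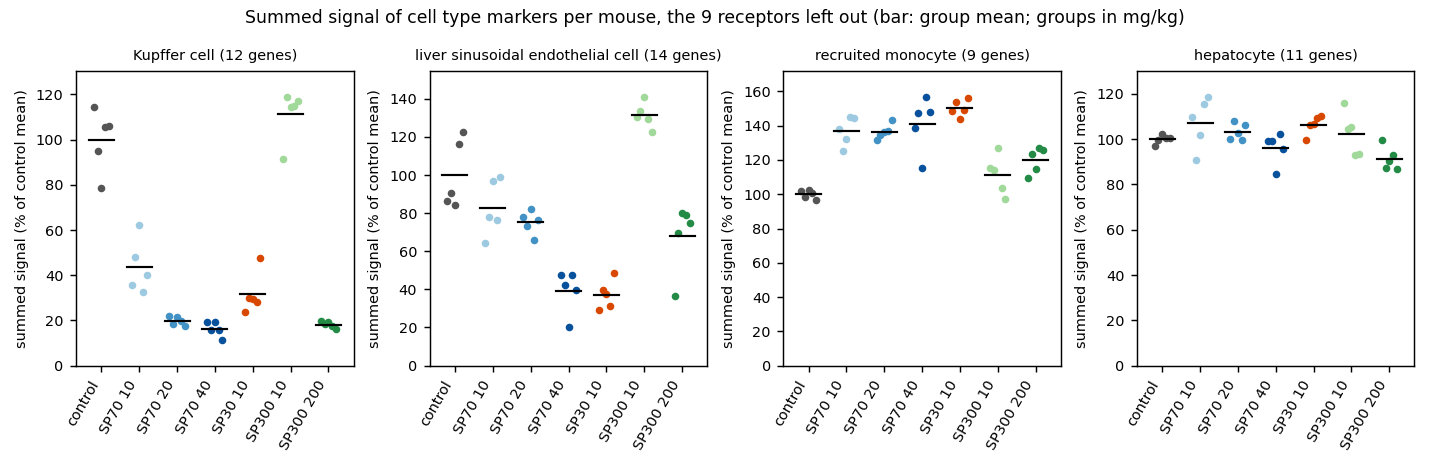
Summed signal of the markers of 4 cell types in each mouse, in percent of the control mean, with the 9 receptors left out (5 points per group; the bar is the group mean). The Kupffer cell sum lies at 11.4% to 19.4% after SP70 at 40 mg/kg, whereas the hepatocyte sum lies between 84.4% and 118% in the treated groups. Most of the recruited monocyte sum in control mice is Fn1.

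Marco, a class A receptor of resident macrophages that binds bacteria and mineral dust, was near the lower end of the measurable range in most mice. Its brightest probe set, of a type that can match transcripts of more than 1 gene, read 174, 187, 91.0, 133 and 151 in the 5 control mice. After SP30 it read 54.1, 448, 356, 330 and 680. Of these SP30 mice 4 lay above every control mouse and 1 below all of them. The log2 difference of SP30 from control was 0.97 ± 0.55 (SE; adjusted p = 0.141) and was not called. Marco was under 165 in all 5 mice after SP70 at 20 and at 40 mg/kg and after SP300 at 200 mg/kg, where the signals ran from 36.1 to 150, from 10.1 to 161 and from 33.4 to 133. Limma called Marco in none of the 6 comparisons with control, with adjusted p from 0.0612 to 0.950.

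Probe sets other than the brightest were tested in a fit over all single-gene probe sets that passed the filter. The other probe set of Marco, which is annotated to that gene alone, gave larger differences. In control mice it read 10.3 to 26.1, under the filter level in all 5. After SP30 it read 340 to 1199, above 165 in all 5 mice, and after SP70 at 10 mg/kg it read 40.0 to 265, above 165 in 3 of 5. In the other 4 treated groups its highest signal was 62.0. On this probe set the log2 difference from control was 4.03 ± 0.50 after SP30 (adjusted p = 3.70e-08) and 2.24 ± 0.50 after SP70 at 10 mg/kg (adjusted p = 0.00146). These 2 differences rest on control values under the filter level and are not folds. This probe set passed the filter on 8 arrays, 5 after SP30 and 3 after SP70 at 10 mg/kg. It was thus tested only because of the groups where it is high, and its adjusted p is not independent evidence of a rise. Both probe sets had their highest group mean after SP30, at 374 and 562. The probe sets disagreed on whether Marco rose against control.

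Msr1, the class A receptor known as SR-A, which binds modified lipoproteins and silica, was lower at the toxic doses of SP70 and SP300 on its brightest probe set. Its brightest probe set read 1445, 1865, 1485, 1815 and 1706 in control mice. It read 923, 1001, 543, 952 and 1018 after SP70 at 40 mg/kg, and 977, 1128, 1030, 990 and 1293 after SP300 at 200 mg/kg. Both sets of treated mice lay wholly below the control mice, and 30% and 20.4% of all genes showed no overlap in these comparisons. Msr1 fell by 0.92 ± 0.15 on the log2 scale after SP70 at 40 mg/kg (adjusted p = 7.21e-06) and by 0.61 ± 0.15 after SP300 at 200 mg/kg (adjusted p = 0.00236). After SP30 the signal was 1568, 2044, 1534, 1850 and 2643, which overlaps control. The difference there was 0.19 ± 0.15 (adjusted p = 0.324), with an interval from -0.12 to 0.50.

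The 4 probe sets of Msr1 did not give the same calls against control. The second brightest rose after SP70 at 10 mg/kg, from a mean of 380 to 773 (log2 difference 1.01 ± 0.28, adjusted p = 0.0116), and after SP30, to 818 (1.06 ± 0.28, adjusted p = 0.00249). The next brightest rose in the same groups, by 0.84 ± 0.29 (adjusted p = 0.0439) and 0.79 ± 0.29 (adjusted p = 0.0262), and also after SP70 at 20 mg/kg, by 1.16 ± 0.29 (adjusted p = 0.00160). The dimmest fell after SP70 at 40 mg/kg, by 0.74 ± 0.21 on the log2 scale (adjusted p = 0.00514). On the middle pair of probe sets, the log2 differences at 40 mg/kg of SP70 were -0.36 and 0.31 and were not called. The decrease of Msr1 at the toxic doses was therefore a result of the brightest and, for SP70, the dimmest probe set.

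**Figure D3:**
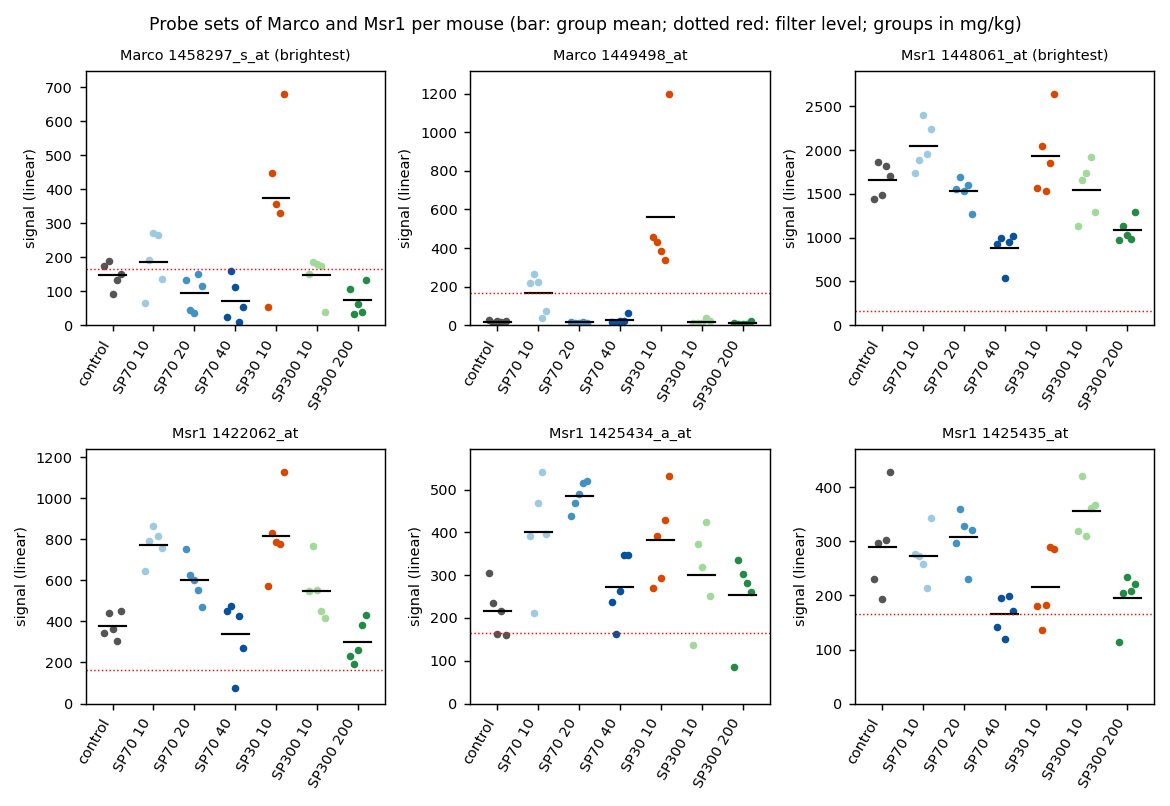
Signal of both probe sets of Marco and all 4 probe sets of Msr1 in each mouse, on linear axes from 0 (5 points per group; the bar is the group mean; the dotted red line is the filter level of 165). The second probe set of Marco lies at 340 to 1199 after SP30 and at 10.3 to 26.1 in control mice, and the Msr1 probe sets differ in where their means exceed control.

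Colec12, a class A receptor with a lectin domain found on vascular endothelium, fell to a like level in 4 of the treated groups. It read 2135, 1777, 1638, 1132 and 1873 in control mice and 829, 736, 640, 792 and 750 after SP70 at 20 mg/kg. At 40 mg/kg of SP70 it read 661, 717, 920, 961 and 675, and after SP30 651, 918, 771, 885 and 696. After SP300 at 200 mg/kg it read 708, 920, 1048, 863 and 729. None of these 20 mice reached the lowest control mouse, 1132. Of all genes, 30% showed no overlap with control after SP70 at 20 mg/kg and 30% at 40 mg/kg. The share was 33.9% after SP30 and 20.4% after SP300 at 200 mg/kg. Colec12 fell by 1.15 ± 0.15 on the log2 scale after SP70 at 20 mg/kg (adjusted p = 1.64e-07) and by 1.10 ± 0.15 at 40 mg/kg (adjusted p = 2.92e-07). It fell by 1.10 ± 0.15 after SP30 (adjusted p = 2.30e-07) and by 0.98 ± 0.15 after SP300 at 200 mg/kg (adjusted p = 5.01e-06).

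At 10 mg/kg of SP70 Colec12 read 969 to 1540, which overlaps control, and the decrease of 0.42 ± 0.15 passed narrowly (adjusted p = 0.0467). That call was lost when control mouse 1, 2, 3 or 5 or SP70 10 mg/kg mouse 3, 4 or 5 was left out (adjusted p from 0.0696 to 0.151), and also with no filter, with only these 2 groups in the fit or without a variance trend. After SP300 at 10 mg/kg Colec12 read 1361 to 2038 and differed from control by 0.01 ± 0.15, with an interval from -0.30 to 0.31.

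Cd36, the class B receptor for long-chain fatty acids and oxidized lipoproteins, was called in none of the 6 comparisons with control. Its signals ran from 814 to 2380 in control mice and from 573 to 2705 in treated mice. The log2 differences ran from -0.27 to 0.37, each with an SE of 0.24, and the widest intervals reached -0.77 and 0.87. The other 2 probe sets of Cd36 also gave no call against control.

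Scarb1, the class B receptor that takes up cholesterol esters from high-density lipoprotein and is abundant in hepatocytes, was slightly higher in 3 treated groups. Its brightest probe set, of a type that can cross-hybridize, read 8636 to 10842 in control mice. It read 10679 to 12529 after SP70 at 20 mg/kg, 9705 to 11902 at 40 mg/kg and 9120 to 13495 after SP300 at 200 mg/kg, and each range overlapped control. The log2 differences were 0.31 ± 0.10 (adjusted p = 0.0130), 0.26 ± 0.10 (adjusted p = 0.0339) and 0.33 ± 0.10 (adjusted p = 0.00961). The other 2 probe sets of Scarb1 gave no call in these 3 groups, with differences from -0.02 to 0.23. One of them was higher after SP70 at 10 mg/kg (0.34 ± 0.10, adjusted p = 0.0222), where the brightest was not called (0.23 ± 0.10, adjusted p = 0.118). With median centring, the rises after SP70 at 20 and 40 mg/kg were no longer called. The call at 40 mg/kg was also lost in 7 fits that each left out 1 mouse (control 2, 3, 4 or 5, or SP70 40 mg/kg 2, 4 or 5; adjusted p from 0.0545 to 0.0814).

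Scarb2, known as LIMP-2, a lysosomal membrane protein that carries glucocerebrosidase to lysosomes, was modestly lower in 3 groups. It read 11038 to 15263 in control mice, 9790 to 11413 after SP70 at 20 mg/kg, 9929 to 12176 at 40 mg/kg and 9317 to 11438 after SP30. These ranges overlap with control at its lower end. Scarb2 fell by 0.31 ± 0.09 on the log2 scale (adjusted p = 0.00527), by 0.26 ± 0.09 (adjusted p = 0.0189) and by 0.36 ± 0.09 (adjusted p = 0.00118). Its second probe set fell in the same 3 groups and also after SP300 at 200 mg/kg, by 0.43 ± 0.08 (adjusted p = 4.49e-05), where the brightest was not called (-0.19 ± 0.09, adjusted p = 0.103). The call at 40 mg/kg was lost with quantile normalization, and without control mouse 3 or 4 or SP70 40 mg/kg mouse 5 (adjusted p from 0.0576 to 0.0830).

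Cd68, a glycoprotein of macrophage late endosomes and lysosomes, moved in opposite directions in different groups. It read 662, 546, 370, 462 and 525 in control mice and 634, 932, 778, 696 and 697 after SP70 at 10 mg/kg. After SP30 it read 579, 572, 584, 868 and 898. These 2 groups overlap the highest control mouse only. After SP300 at 200 mg/kg it read 333, 277, 263, 319 and 322, and all 5 mice lay below the lowest control mouse. In that comparison 20.4% of all genes showed no overlap. Cd68 rose by 0.55 ± 0.17 on the log2 scale after SP70 at 10 mg/kg (adjusted p = 0.0253) and by 0.43 ± 0.17 after SP30 (adjusted p = 0.0381). It fell by 0.72 ± 0.17 after SP300 at 200 mg/kg (adjusted p = 0.00173).

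After SP70 at 40 mg/kg Cd68 read 295 to 566, and the difference of -0.38 ± 0.17 was not called (adjusted p = 0.0792). After SP300 at 10 mg/kg Cd68 read 630 to 765, and the difference of 0.51 ± 0.17 was not called either (adjusted p = 0.155), where the called difference after SP30 was 0.43. The rise after SP70 at 10 mg/kg was lost without control mouse 3 or 4 or SP70 10 mg/kg mouse 2 (adjusted p from 0.0577 to 0.100), and with quantile normalization (adjusted p = 0.0620). The rise after SP30 was lost without control mouse 3 or 4 or SP30 mouse 4 or 5 (adjusted p from 0.0760 to 0.138), and with no filter or only these 2 groups (adjusted p up to 0.0656).

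Mrc1, the mannose receptor, which clears glycoproteins with exposed mannose from the blood, had the lowest log2 difference of the 9 receptors in each treated group except SP300 at 10 mg/kg. It read 2781, 2743, 2193, 3791 and 4207 in control mice. It read 1150, 1673, 2532, 1817 and 2145 after SP70 at 10 mg/kg and 1376, 1230, 1389, 1339 and 1355 at 20 mg/kg. At 40 mg/kg it read 715, 455, 231, 470 and 523. The mice at 20 and 40 mg/kg all lay below the control mice, and those at 40 mg/kg also lay below all mice at 10 and 20 mg/kg. Of all genes, 30% showed no overlap with control at 20 mg/kg and 30% at 40 mg/kg. Between 40 and 10 mg/kg the share was 17.6%, and between 40 and 20 mg/kg it was 9.84%. The control mean was 3143 ± 828 (SD, n = 5), and the means at the 3 doses were 1863 ± 518, 1338 ± 63.4 and 479 ± 173. As ratios of geometric means, control was 1.70-fold, 2.29-fold and 6.79-fold higher. The log2 differences were -0.76 ± 0.24 (adjusted p = 0.0232), -1.19 ± 0.24 (adjusted p = 0.000141) and -2.73 ± 0.24 (adjusted p = 2.44e-11).

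After SP30 Mrc1 read 530, 598, 679, 473 and 1001, a log2 difference of -2.25 ± 0.24 from control (adjusted p = 1.29e-09). After SP300 at 200 mg/kg it read 619, 1060, 1823, 1521 and 1188, a difference of -1.38 ± 0.24 (adjusted p = 3.10e-05). Neither group overlapped control, as for 33.9% of all genes after SP30 and 20.4% after SP300 at 200 mg/kg. After SP300 at 10 mg/kg it read 3628 to 4400 and was not called (0.36 ± 0.24, adjusted p = 0.541). The decrease after SP70 at 10 mg/kg was lost without control mouse 4 or 5 or SP70 10 mg/kg mouse 1 (adjusted p from 0.0666 to 0.0999).

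Stab1, stabilin-1, which takes up acetylated lipoproteins and secreted matrix proteins in sinusoidal endothelium, was lower in 2 groups. It read 1540, 1159, 977, 925 and 1094 in control mice. It read 476, 460, 443, 620 and 586 after SP70 at 40 mg/kg and 506, 597, 542, 801 and 737 after SP30, and both groups lay wholly below control. The share of all genes without overlap was 30% for SP70 at 40 mg/kg and 33.9% for SP30. Stab1 fell by 1.11 ± 0.14 on the log2 scale after SP70 at 40 mg/kg (adjusted p = 6.26e-08) and by 0.83 ± 0.14 after SP30 (adjusted p = 8.74e-06). After SP300 at 200 mg/kg it read 723 to 1175, with a difference of -0.16 ± 0.14 (adjusted p = 0.444) and an interval from -0.44 to 0.13. With quantile normalization or median centring the difference at 20 mg/kg of SP70 (-0.27 ± 0.14, adjusted p = 0.138) was called, and it reached -0.35.

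**Figure D4:**
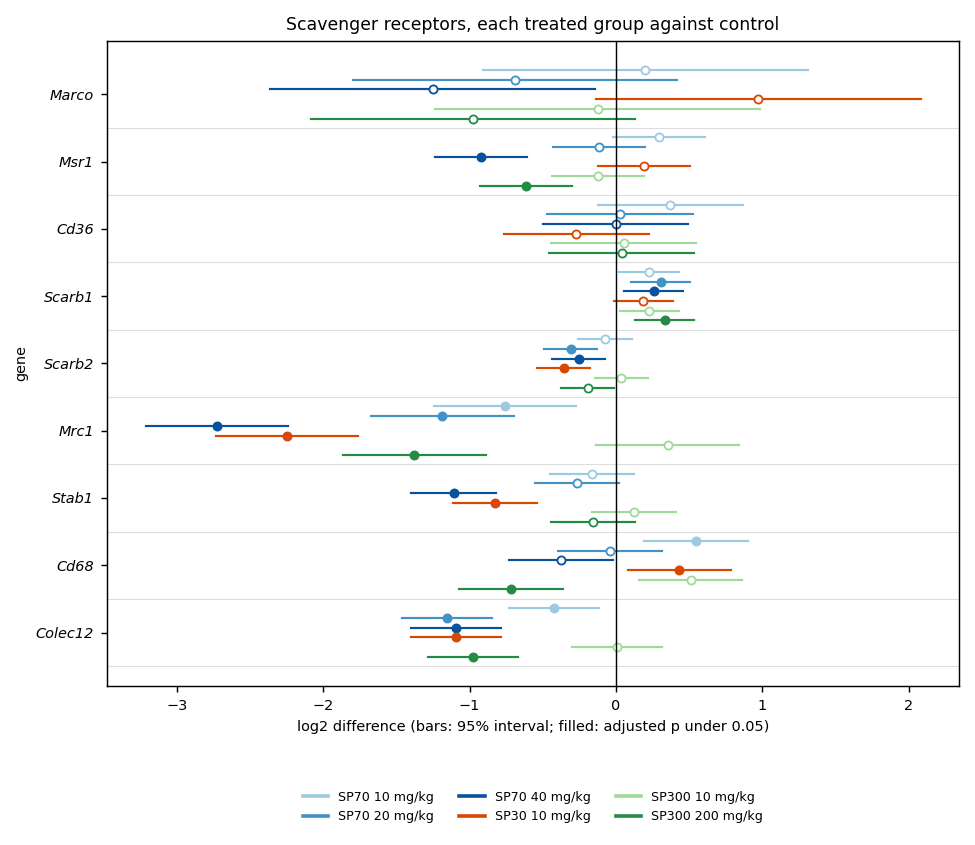
Log2 difference from control of each receptor in the 6 treated groups, with 95% intervals (filled points: adjusted p under 0.05). Mrc1 reaches -2.73 after SP70 at 40 mg/kg, and only Cd68 has filled points on both sides of 0.

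The 3 doses of SP70 were compared directly. Between 10 and 40 mg/kg, 6 of the 9 receptors were lower at the higher dose and none was higher, where 30.6% of all genes were called (5.22% higher, 25.3% lower). These were Marco, Msr1, Mrc1, Stab1, Cd68 and Colec12. Between 10 and 20 mg/kg, 2 were lower, with 17% of all genes called (4.99% higher, 12% lower). Colec12 fell by 0.73 ± 0.15 on the log2 scale at this step (adjusted p = 0.00101) and Cd68 by 0.59 ± 0.17 (adjusted p = 0.0175). Between 20 and 40 mg/kg, 3 were lower, with 11.5% of all genes called (2.79% higher, 8.69% lower). Mrc1 fell by 1.54 ± 0.24 (adjusted p = 5.51e-05), Stab1 by 0.84 ± 0.14 (adjusted p = 0.000121) and Msr1 by 0.81 ± 0.15 (adjusted p = 0.000594). The other 3 probe sets of Msr1 were lower at this step as well, with log2 differences of -0.86 or below (adjusted p from 0.00618 to 0.0461).

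Colec12 did not differ between 20 and 40 mg/kg beyond the spread, with a difference of 0.06 ± 0.15 and an interval from -0.25 to 0.36. Mrc1 had its lower call at the second step and not at the first, where the difference was -0.43 ± 0.24 (adjusted p = 0.238). The calls of Colec12 and Mrc1 thus stood at different dose steps, and the difference between their courses was not tested. The call of Cd68 between 10 and 20 mg/kg was lost without SP70 10 mg/kg mouse 2 or SP70 20 mg/kg mouse 4 (adjusted p of 0.0574 and 0.0861). The call of Marco between 10 and 40 mg/kg (-1.45 ± 0.55, adjusted p = 0.0408) was lost without SP70 10 mg/kg mouse 2, 3, 4 or 5 or SP70 40 mg/kg mouse 1, 4 or 5 (adjusted p from 0.0506 to 0.147), and with a pseudocount of 50, no filter or only these 2 groups (adjusted p up to 0.0765). The second probe set of Marco gave -2.01 ± 0.50 (adjusted p = 0.00278), but it passed the filter only through mice given SP30 or SP70 at 10 mg/kg. For SP300, 5 receptors were lower at 200 than at 10 mg/kg, with 31.8% of all genes called (9.41% higher, 22.4% lower), and these were Mrc1, Cd68, Colec12, Msr1 and Scarb2. Cd68 fell by 1.23 ± 0.17 there (adjusted p = 1.38e-06) and Mrc1 by 1.73 ± 0.24 (adjusted p = 8.79e-07). The call of Msr1 (-0.49 ± 0.15, adjusted p = 0.0139) was lost without SP300 10 mg/kg mouse 4 (adjusted p = 0.0528). That of Scarb2 (-0.23 ± 0.09, adjusted p = 0.0472) was lost without SP300 10 mg/kg mouse 2, 3 or 5 or SP300 200 mg/kg mouse 1, 2 or 5 (adjusted p from 0.0670 to 0.115), and with no filter, no variance trend, quantile normalization or median centring.

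At the equal dose of 10 mg/kg, Mrc1, Stab1, Colec12 and Scarb2 were lower after SP30 than after either larger particle. Against SP70, 5 receptors were lower after SP30 and none was higher, where 29% of all genes were called (5.41% higher, 23.6% lower). Mrc1 fell by 1.49 ± 0.24 on the log2 scale (adjusted p = 1.48e-05), Colec12 by 0.67 ± 0.15 (adjusted p = 0.000930) and Stab1 by 0.66 ± 0.14 (adjusted p = 0.000538), each with no overlap between the mice. The share of all genes without overlap in this comparison was 16.6%. Scarb2 and Cd36 were the other 2. The call of Scarb2 (-0.28 ± 0.09, adjusted p = 0.0161) was lost without SP30 mouse 2 or SP70 10 mg/kg mouse 3 (adjusted p of 0.0502 and 0.0829), on its second probe set, and under quantile normalization, median centring or only these 2 groups. The call of Cd36 (-0.64 ± 0.24, adjusted p = 0.0448) was lost without SP30 mouse 2 or 4 or SP70 10 mg/kg mouse 1, 3, 4 or 5 (adjusted p from 0.0570 to 0.188), while another Cd36 probe set gave -0.70 ± 0.21 (adjusted p = 0.0113). On the brightest probe set the Cd36 call was also lost with no filter, quantile normalization, median centring, only these 2 groups or no variance trend.

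Against SP300 at 10 mg/kg, 4 receptors were lower after SP30, with 51.8% of all genes called (16.3% higher, 35.6% lower). Mrc1 fell by 2.60 ± 0.24 (adjusted p = 4.71e-11), Colec12 by 1.10 ± 0.15 (adjusted p = 1.89e-07), Stab1 by 0.95 ± 0.14 (adjusted p = 8.23e-07) and Scarb2 by 0.39 ± 0.09 (adjusted p = 0.000367). The Scarb2 call was lost on its second probe set (adjusted p = 0.186). The mice did not overlap for any of these 4, as for 35.7% of all genes. Between SP70 and SP300 at 10 mg/kg, 2 receptors were lower after SP70, with 20.6% of all genes called (10.5% higher, 10.2% lower). These were Mrc1 (-1.11 ± 0.24, adjusted p = 0.000798) and Colec12 (-0.43 ± 0.15, adjusted p = 0.0400). The Colec12 call was lost without SP70 10 mg/kg mouse 3, 4 or 5 or SP300 10 mg/kg mouse 2, 3 or 4 (adjusted p from 0.0681 to 0.135), and with no filter or only these 2 groups (adjusted p up to 0.0579). Cd68 and Msr1 were not called in any of these 3 comparisons at 10 mg/kg on their brightest probe sets, and the dimmest of Msr1 was lower after SP30 than after SP300 (-0.74 ± 0.21, adjusted p = 0.00421). On the second probe set of Marco, SP30 was higher than SP70 by 1.79 ± 0.50 (adjusted p = 0.00770) and than SP300 by 4.06 ± 0.50 (adjusted p = 3.00e-08). That probe set passed the filter only through mice given SP30 or SP70 at 10 mg/kg, so these tests are not independent evidence.

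At the toxic doses, on the brightest probe set of each gene, Marco, Msr1 and Cd68 were higher after SP30 than after the larger particles. Mrc1 and Stab1 were lower after SP30 and SP70 than after SP300. The other probe sets of Msr1 did not all give the same call, as described below. SP30 at 10 mg/kg gave 3 higher receptors than SP70 at 40 mg/kg and none lower, where 5.71% of all genes were called (3.68% higher, 2.03% lower). Msr1 was higher by 1.11 ± 0.15 (adjusted p = 1.02e-05) and Cd68 by 0.81 ± 0.17 (adjusted p = 0.00294), with no overlap between the mice for either. The share of all genes without overlap was 5.15%. Marco was higher by 2.23 ± 0.55 (adjusted p = 0.0102), with overlap between the mice. With signals under 165 raised to that level in both groups, its geometric mean was 2.17-fold higher. The raised signals include 1 SP30 mouse at 54.1, so this ratio is not a lower bound. That Marco call was lost when only these 2 groups entered the fit (adjusted p = 0.0783). Mrc1, Stab1 and Colec12 were not called between these groups, with differences of 0.48 ± 0.24, 0.28 ± 0.14 and 0.00 ± 0.15.

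The same 3 receptors, Marco, Msr1 and Cd68, were higher after SP30 than after SP300 at 200 mg/kg, where 29.2% of all genes were called (11.7% higher, 17.5% lower). The differences were 1.95 ± 0.55 for Marco (adjusted p = 0.00671), 0.80 ± 0.15 for Msr1 (adjusted p = 0.000151) and 1.15 ± 0.17 for Cd68 (adjusted p = 5.16e-06). Both comparisons share the SP30 mice. The Msr1 difference is that of its brightest probe set. On the second brightest the means after SP30 and after SP300 at 200 mg/kg were 818 and 300. They were 383 and 253 on the next brightest, and 215 and 196 on the dimmest. Stab1 was lower by 0.67 ± 0.14 (adjusted p = 0.000484) and Mrc1 by 0.87 ± 0.24 (adjusted p = 0.00612) after SP30 than after SP300. SP70 at 40 mg/kg also had lower Stab1 and Mrc1 than SP300 at 200 mg/kg, by 0.95 ± 0.14 (adjusted p = 1.55e-05) and 1.35 ± 0.24 (adjusted p = 0.000167), with 15.5% of all genes called (5.04% higher, 10.4% lower). Msr1 and Cd68 were not called between these latter groups (-0.31 ± 0.15 and 0.34 ± 0.17).

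Marker levels went with these comparisons as well. Of 14 Kupffer cell markers, a list that holds Marco and Cd68, 12 were higher after SP30 than after SP70 at 40 mg/kg and 13 were higher than after SP300 at 200 mg/kg. Of all genes, 3.68% and 11.7% were higher in these comparisons. Marco and Cd68 are among the markers counted as higher. Of 15 sinusoidal endothelial markers, a list that holds Stab1, 12 were lower after SP30 and 11 lower after SP70 at 40 mg/kg than after SP300 at 200 mg/kg. Stab1 is among those counted as lower, and 17.5% and 10.4% of all genes were lower. None was called between SP30 and SP70 at 40 mg/kg, where 5.71% of all genes were called. Of 9 recruited monocyte markers, 6 were higher after SP30 than after SP300 at 200 mg/kg, where 11.7% of all genes were higher. None of the 9 was called between SP30 and SP70 at 40 mg/kg. The part of these cells in the receptors' differences was not tested. On the other probe sets of Msr1, SP30 was higher than SP70 at 40 mg/kg by 1.43 ± 0.28 (adjusted p = 0.00186), 0.48 ± 0.29 (adjusted p = 0.427) and 0.33 ± 0.21 (adjusted p = 0.477), so that only the second brightest gave the same call.

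**Figure D5:**
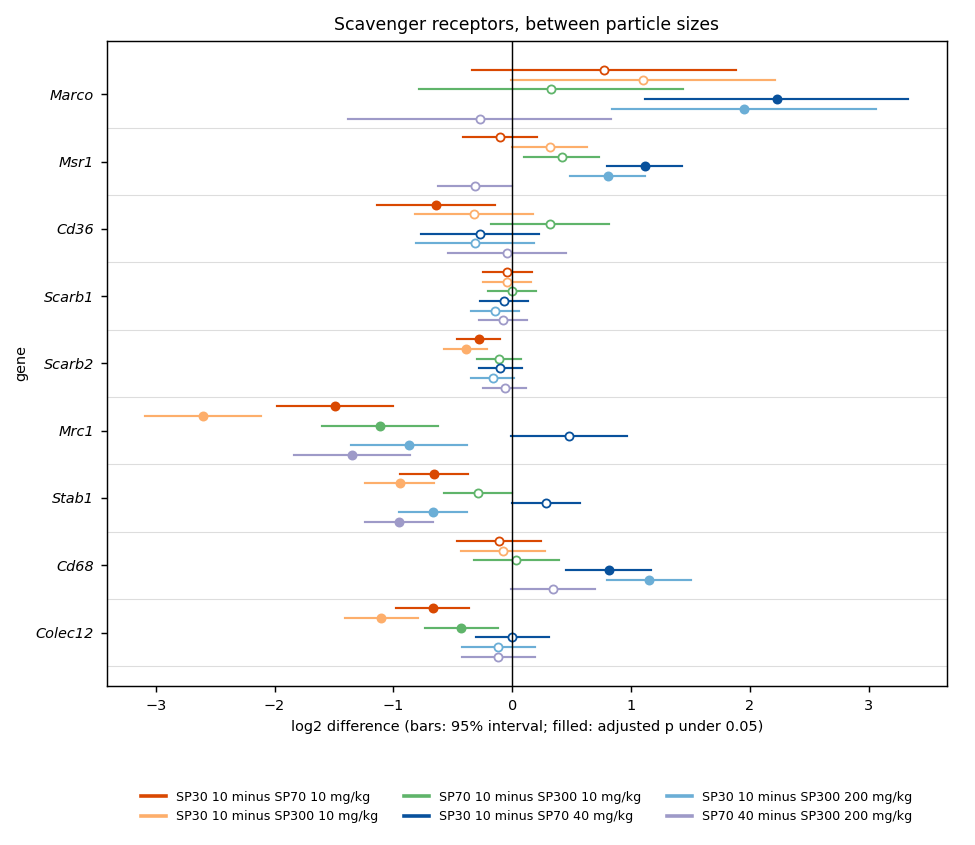
Log2 difference of each receptor between particle sizes, at the equal dose of 10 mg/kg and at the toxic doses, with 95% intervals (filled points: adjusted p under 0.05). On the brightest probe set of each gene, Marco, Msr1 and Cd68 are higher after SP30 than after SP70 at 40 mg/kg (2.23, 1.11 and 0.81). Mrc1 and Stab1 are lower after SP30 than after SP300 at 200 mg/kg (-0.87 and -0.67).

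In the order of group means, neighbouring groups overlapped in range for all 9 receptors, except that the 5 mice of SP70 at 20 mg/kg all had more Stab1 than those of SP30. SP300 at 10 mg/kg had the highest mean of Mrc1, Stab1 and Scarb2, SP70 at 10 mg/kg that of Msr1, Cd36 and Cd68, SP300 at 200 mg/kg that of Scarb1, and SP30 that of Marco. Control mice had the highest mean of Colec12 and the lowest of Scarb1. SP70 at 40 mg/kg had the lowest mean of Mrc1, Stab1, Msr1 and Marco, SP30 that of Cd36 and Scarb2, SP300 at 200 mg/kg that of Cd68 and SP70 at 20 mg/kg that of Colec12.

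Across the 35 arrays, which include all group differences, log2 signals of Mrc1 and Stab1 correlated at a Pearson's r of 0.840, and those of Msr1 and Cd68 at 0.703. After the group means were subtracted, the same pairs correlated at 0.274 and 0.321. The genes most like Mrc1 were Clec4g (0.973), Fcgr2b (0.960) and Kdr (0.958), which are all in the list of sinusoidal endothelial markers. Those most like Stab1 were Cluh (0.903), Eng (0.889) and Sumo3 (0.880), and those most like Colec12 were Mmd (0.913), Agmo (0.909) and Abca8a (0.905). The genes most like Msr1 were Cd48 (0.837), Itgal (0.815) and Lst1 (0.811), and those most like Cd68 were Laptm5 (0.879), Cd300a (0.847) and Tmsb4x (0.846). For Marco they were Dok2 (0.703), Lst1 (0.643) and Znf41-ps (0.612), for Scarb2 Tusc3 (0.865), Slco1b2 (0.865) and Pex16 (0.862), for Scarb1 Trappc6b (0.762), Ang (0.738) and Zfp119b (0.736), and for Cd36 Ckap2 (0.636), Serinc2 (0.606) and Cables1 (0.599). These correlations are over arrays that share the groups, and they are given as a description of likeness with no test.

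Of 11 other scavenger receptors tested, 5 were lower and 4 higher after SP70 at 40 mg/kg, 4 lower and 4 higher after SP30, and 4 lower and 2 higher after SP300 at 200 mg/kg. The shares of all genes called in these comparisons were 44.4% (28.8% lower), 49.3% (31.3% lower) and 30.7% (18% lower). Cd163, the haemoglobin-haptoglobin receptor of macrophages, had a control mean of 1439 ± 307 (SD, n = 5) and 149, 14.0 and 34.9 in these 3 groups, all under 165. The adjusted p was 1.62e-08 after SP30 and lower in the other 2. Cd5l, a soluble member of the family made by Kupffer cells, had a control mean of 2810, and 2142 after SP30, where it was not called (-0.41 ± 0.29, adjusted p = 0.245). It had 128 after SP70 at 40 mg/kg and 127 after SP300 at 200 mg/kg (adjusted p = 1.06e-14 and 3.41e-14). Scara5, a ferritin receptor of class A, rose in all 6 treated groups, SP300 at 10 mg/kg included (1.67 ± 0.34, adjusted p = 0.00587), and most after SP30 (3.01 ± 0.34, adjusted p = 2.99e-09). Its control mice spread widely, at 1232 ± 1129 (SD, n = 5).

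Of 20 receptors for opsonins and dying cells, 10 were lower and 4 higher after SP70 at 40 mg/kg, and 9 were lower and 2 higher after SP300 at 200 mg/kg, where 28.8% and 18% of all genes were lower. After SP30 the split was 7 lower and 5 higher, with a median log2 difference of -0.07. Vsig4, the complement receptor of Kupffer cells, had a mean of 5590 in control mice, 907 after SP30 and 108 after SP70 at 40 mg/kg. Itgb2, the shared chain of the leukocyte integrins, rose after SP30 (1.60 ± 0.18, adjusted p = 4.00e-09). Of 12 lectin receptors, 5 were higher and 4 lower after SP30, where 18.1% and 31.3% of all genes were. Clec4e, which senses cell damage and fungal lipids, had a mean of 30.1 in control mice, under the filter level, and 1287 after SP30. Clec4f, a lectin of Kupffer cells, had a mean of 3784 in control mice, 721 after SP30 and 62.0 after SP70 at 40 mg/kg.

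Of 26 genes of the endocytosis machinery, 7 were higher and 6 lower after SP30, and 6 were higher and 7 lower after SP300 at 200 mg/kg and also after SP70 at 40 mg/kg. The share called after SP30 was near the 49.3% of all genes. Ehd3, an endothelial gene of endosome recycling, fell by 2.10 ± 0.14 on the log2 scale after SP30 (adjusted p = 1.76e-14), and its relative Ehd1 rose by 1.38 ± 0.10 (adjusted p = 3.84e-13). Of 30 genes of lysosomal proteins, 17 were lower and 3 higher after SP70 at 40 mg/kg, and 14 lower and 3 higher after SP300 at 200 mg/kg, where 28.8% and 18% of all genes were lower. Ctss, a protease of phagocytes, fell by 1.65 ± 0.15 after SP300 at 200 mg/kg (adjusted p = 1.54e-10). Lipa, the lysosomal acid lipase, fell by 1.04 ± 0.09 after SP30 (adjusted p = 1.85e-11). Tfe3, a transcription factor of lysosomal genes, rose by 1.39 ± 0.12 after SP30 (adjusted p = 2.43e-11).

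Of 14 partners of the class B receptors in lipid handling, 7 were lower and 2 higher after SP70 at 40 mg/kg, where 28.8% of all genes were lower and 15.6% higher. Pdzk1, the adaptor that keeps Scarb1 at the hepatocyte surface, fell by 0.56 ± 0.11 there (adjusted p = 6.43e-05), in a group where the brightest Scarb1 probe set was higher. Abca1, the cholesterol exporter, rose by 1.36 ± 0.11 after SP30 (adjusted p = 1.97e-12). Of 19 transcriptional regulators of macrophage and lipid receptor genes, 10 were higher and 7 lower after SP30, where 18.1% of all genes were higher and 31.3% lower. Nr4a1, an immediate early nuclear receptor, rose by 2.03 ± 0.17 (adjusted p = 8.32e-12), and Irf8, a factor of the monocyte lineage, by 1.85 ± 0.18 (adjusted p = 8.27e-11). Maf, a factor of resident macrophages and sinusoidal endothelium, fell by 2.14 ± 0.20 (adjusted p = 5.58e-11).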

How the data were processed

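Values are probe set intensities on a linear scale, as deposited by the authors for 35 Affymetrix arrays of biotin-labelled liver RNA. MAS5 is named in the submitters' processing notes, with its version and scaling not given in the sources used here. Of 45101 probe sets, 34945 carry 1 gene in the platform annotation, 932 several and 9160 none, beside 64 control probe sets. The labels give the groups, of 5 mice each, and the number of arrays limits the precision.

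Per gene, the single-gene probe set of highest mean was kept. Genes with a signal above 165 on at least 5 arrays were tested on log2(signal + 12.5), the pseudocount being the 10th percentile of all values. One limma fit (limma 3.58.1, R 4.3.3; eBayes with a variance trend) over all 35 arrays gave 16 comparisons, each with Benjamini-Hochberg adjustment over 12669 genes and a threshold of 0.05. Intervals are at 95%. The fit was tested on simulated data. Alternatives were other pseudocounts and filters, quantile normalization, median centring, other probe sets, only the groups compared, a replicate block, no variance trend, and each mouse left out.

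The receptors, gene lists and cell type markers were chosen with earlier results of these data known. Besides the receptors, the text names list genes among the up to 4 of smallest adjusted p against control, and for each receptor the 3 genes of highest correlation. Outside this rule are Timd4, Fn1, Krt7 and Cftr, named for their signal level, and Lyve1, chosen after its values were seen.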

Additional observations from a re-analysis of the deposited data

Results flagged for a closer look

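A gap test for a single distant mouse was run on each of the 9 receptors in each of the 7 groups, 63 sets of 5 mice, and chance alone marks about 1 in 20 such sets. It marked 3 sets. Marco in mouse 5 of SP300 at 10 mg/kg had a signal of 37.6, below the other 4 mice at 152 to 187. Msr1 in mouse 3 of SP70 at 40 mg/kg had a signal of 543, below the other 4 at 923 to 1018. Scarb1 in control mouse 1 had a signal of 10842, above the other 4 at 8636 to 9190. The calls of Msr1 after SP70 at 40 mg/kg held in each fit that left out 1 mouse.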

How the results depend on the processing

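No difference called in the fit described above changed direction under an alternative. Msr1 for SP70 at 20 mg/kg against control was not called in that fit (-0.12). With the mean of all its probe sets it was called higher (limma, adjusted p = 0.0337). Over 144 receptor differences, the call changed in 10 under median centring and in 10 under quantile normalization, in 8 with only the 2 groups in the fit, and in 6 without a filter. Of the 80 differences of the 5 receptors with more than 1 probe set, it changed in 16 with the mean of all probe sets and in 18 with the second. Between SP30 and SP70 at 10 mg/kg, 3 receptors instead of 5 were called under quantile normalization, median centring or only 2 groups, and 3 to 5 with 1 mouse left out (3 without SP70 10 mg/kg mouse 3 or SP30 mouse 2). Between SP70 and SP300 at 10 mg/kg it was 1 instead of 2 without a filter or with only 2 groups, and 1 to 3 with 1 mouse left out (1 without SP70 10 mg/kg mouse 3, 4 or 5 or SP300 10 mg/kg mouse 2). For SP70 at 10 mg/kg against control, 5 were called with the mean of all probe sets and 6 with the second, instead of 3, and 1 to 2 with 1 mouse left out (1 without control mouse 3, 4 or 5). Between 20 and 10 mg/kg of SP70 it was 1 to 3 (1 without SP70 10 mg/kg mouse 2 or SP70 20 mg/kg mouse 4). The causes were not tested. Of all genes, 148 were called after SP300 at 10 mg/kg, 87 under median centring, 45 with only 2 groups, 94 without control mouse 2 and 72 without SP300 10 mg/kg mouse 3. Between SP30 and SP70 at 40 mg/kg it was 723, 419 with only 2 groups, 426 without SP70 40 mg/kg mouse 3 and 467 without SP30 mouse 4. Between 40 and 20 mg/kg of SP70 it was 1455, 853 under median centring, 913 without SP70 40 mg/kg mouse 3 and 962 without SP70 20 mg/kg mouse 3. Between SP70 at 40 and SP300 at 200 mg/kg it was 1960, and 3021 under median centring. Same-numbered mice did not deviate together (mean r of -0.00055 over 105 pairs), and with the number as a replicate block the call of Colec12 for SP70 at 10 mg/kg against control was lost, while Msr1 (SP70 against SP300 at 10 mg/kg) and Scarb2 (20 against 10 mg/kg of SP70) were called. Marco could not be tested with a filter that asks for all mice of a group, and its signals near background limit its precision.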

Other observations

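Lyve1, the hyaluronan receptor of sinusoidal and lymphatic endothelium, went the other way from most sinusoidal endothelial markers. Its mean was 1084 ± 660 (SD, n = 5) in control mice, and it rose after SP70 at 20 mg/kg by 2.14 ± 0.42 on the log2 scale (limma, adjusted p = 8.39e-05). It also rose after SP70 at 40 mg/kg (1.61 ± 0.42, adjusted p = 0.00183) and after SP30 (1.56 ± 0.42, adjusted p = 0.00221). In each of these groups 12 of the 15 endothelial markers were lower, where 28.8% and 31.3% of all genes were. Lyve1 was chosen after its values were seen.

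Of 11 neutrophil markers, limma called 10 higher after SP30, 9 after SP70 at 40 mg/kg and 6 after SP300 at 200 mg/kg. Of all genes, 18.1%, 15.6% and 12.6% were higher in these comparisons with control. Group means under 165 were found for 7 of the 11 in control mice, 4 after SP300 at 200 mg/kg and 1 after SP70 at 40 mg/kg. The summed signal of 11 neutrophil markers was 2661 to 7387 in control mice, 127849 to 149895 after SP30, 95051 to 146975 after SP70 at 40 mg/kg and 85545 to 99288 after SP300 at 200 mg/kg. Such a sum is weighted to its brightest markers, so it is not a level of neutrophils as such.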
